A study of Mus musculus with 16 samples.

Results

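Red pulp macrophages of the mouse spleen were examined as the droplets that carried at least 150 raw counts of the F4/80 antibody and at least 60 of the CD106 antibody. The members were thus chosen by measured antibody counts, and their F4/80, CD106, Adgre1 and Vcam1 values are descriptions. The rule took 129 of 7097 droplets, 1.82% (exact binomial 95% interval 1.52 to 2.16). They came to 64 of 3179 droplets (2.013%, 1.55 to 2.56) in the source Main1 and 65 of 3918 (1.66%, 1.28 to 2.110) in the source Main2. These intervals cover counting error only. The data were CITE-seq, in which a droplet captures a cell's polyadenylated RNA together with DNA-tagged antibodies on its surface. Both sources were spleens of 9-month-old female BALB/cJ mice, with no other treatment or allele in the labels. The tissue was pressed through a strainer and its red blood cells were lysed before staining, and the protocol gives no sort by cell type. The gated droplets were set against the 528 droplets outside the gate with 50 or more CD11b antibody counts (247 in Main1 and 281 in Main2), and against all 6968 droplets outside the gate (3115 and 3853), which include those 528. The 16 samples formed 4 groups of 4, an RNA and an antibody group per source, but the tables pool the 4 samples of a source, so each source counts as 1 library. The design text speaks of a pair of spleens, while the labels do not say that Main1 and Main2 are separate animals. Every p-value below therefore measures at most the spread between these 2 libraries.

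Red pulp macrophages line the cords of the splenic red pulp and engulf worn-out erythrocytes. Haem from the digested cells is opened by haem oxygenase 1 (Hmox1), the freed iron is stored in ferritin (Fth1 and Ftl1), and ferroportin (Slc40a1) returns it to the blood. Their development depends on Spi-C (Spic), an ETS-family transcription factor related to PU.1 (Spi1). They are also known for the F4/80 adhesion receptor (gene Adgre1), for VCAM1 (the CD106 antigen, gene Vcam1) and for the C1q subunits of the classical complement pathway.

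Promoter windows are shown for 4 genes that stood far above the other droplets in both sources, a pair of neighbouring C1q subunit genes, the regulator Spic and the lectin ficolin A (Fcna). RefSeq windows on GRCm38.p6, 250 bases before to 50 after the annotated start, were looked up for 29 genes named here, and 15 had one. Only 2 of the 6 marker genes, C1qb and Spic, were among them. Capitals mark the purine-rich ETS-type word AGGAAGT or its reverse complement ACTTCCT, searched on both strands and chosen after the windows had been seen. All 4 lie on the minus strand of their chromosome, C1qb at chr4:136886151-136886450, C1qc at chr4:136892865-136893164, Spic at chr10:88682974-88683273 and Fcna at chr2:25627925-25628224.
C1qb: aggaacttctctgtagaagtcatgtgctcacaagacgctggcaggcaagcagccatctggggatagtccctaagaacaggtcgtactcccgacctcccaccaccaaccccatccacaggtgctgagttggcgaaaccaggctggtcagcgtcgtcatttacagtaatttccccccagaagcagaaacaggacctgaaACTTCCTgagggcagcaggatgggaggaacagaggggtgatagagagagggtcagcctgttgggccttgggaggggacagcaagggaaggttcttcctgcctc
C1qc: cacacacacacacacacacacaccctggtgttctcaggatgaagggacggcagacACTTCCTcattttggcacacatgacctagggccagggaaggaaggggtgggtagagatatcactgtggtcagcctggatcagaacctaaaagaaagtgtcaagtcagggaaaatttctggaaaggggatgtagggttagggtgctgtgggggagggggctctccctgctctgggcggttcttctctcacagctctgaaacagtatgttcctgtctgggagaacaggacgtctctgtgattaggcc
Spic: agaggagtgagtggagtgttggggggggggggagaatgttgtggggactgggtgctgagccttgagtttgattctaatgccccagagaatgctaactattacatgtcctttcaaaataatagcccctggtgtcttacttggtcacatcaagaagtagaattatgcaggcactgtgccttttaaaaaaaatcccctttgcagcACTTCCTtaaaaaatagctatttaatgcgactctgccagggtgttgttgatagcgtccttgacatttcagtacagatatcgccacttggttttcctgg
Fcna: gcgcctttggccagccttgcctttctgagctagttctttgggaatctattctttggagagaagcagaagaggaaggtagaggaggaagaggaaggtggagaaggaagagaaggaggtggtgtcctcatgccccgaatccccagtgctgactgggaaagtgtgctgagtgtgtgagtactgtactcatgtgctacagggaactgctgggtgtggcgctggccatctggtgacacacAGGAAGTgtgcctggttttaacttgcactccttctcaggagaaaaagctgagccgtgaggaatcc
The word began 53 bases before the start in C1qb, 195 in C1qc, 48 in Spic and 15 in Fcna. It was also found in the window of Mrc1, 211 bases before the start. It was absent from the other 10 genes with a window, among them Axl, Cd5l, Igf1 and Mertk. Of all 32851 windows, 9.35% held it, and of 10079 windows of genes tested against all other droplets, 9.86%. A match is a string of letters, not a bound site.

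The label was checked against markers that the antibody rule did not use. C1qa, C1qb, Hmox1, Slc40a1 and Spic were all abundant in the gated droplets, so the name red pulp macrophage holds for the gate as a whole, but not for each droplet in it. Lymphocyte antigens sat on many of the gated droplets. With limits of 150 counts for B220, an antigen of B cells, and 60 for the T-cell receptor (TCR) antibody, 57 of 129 (44.2%) carried at least 1 of them, 28 of 64 in Main1 and 29 of 65 in Main2. These 57, called B/T-positive here, comprised 25 droplets with both antigens, 30 with B220 only and 2 with TCR only. The other 72, 36 in each source, were below both limits and are called B/T-negative. The 57 held 71.5% of the gated droplets' RNA molecules, counted as unique molecular identifiers (UMIs), in Main1 and 68.2% in Main2. No doublet caller was run, and whether antigens reached these droplets from a second cell was not tested. No barcode of a gated droplet occurred in both sources, although 14 barcodes in all did. Sums over all gated droplets are therefore given beside sums over the B/T-negative ones throughout.

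**Figure D1:**
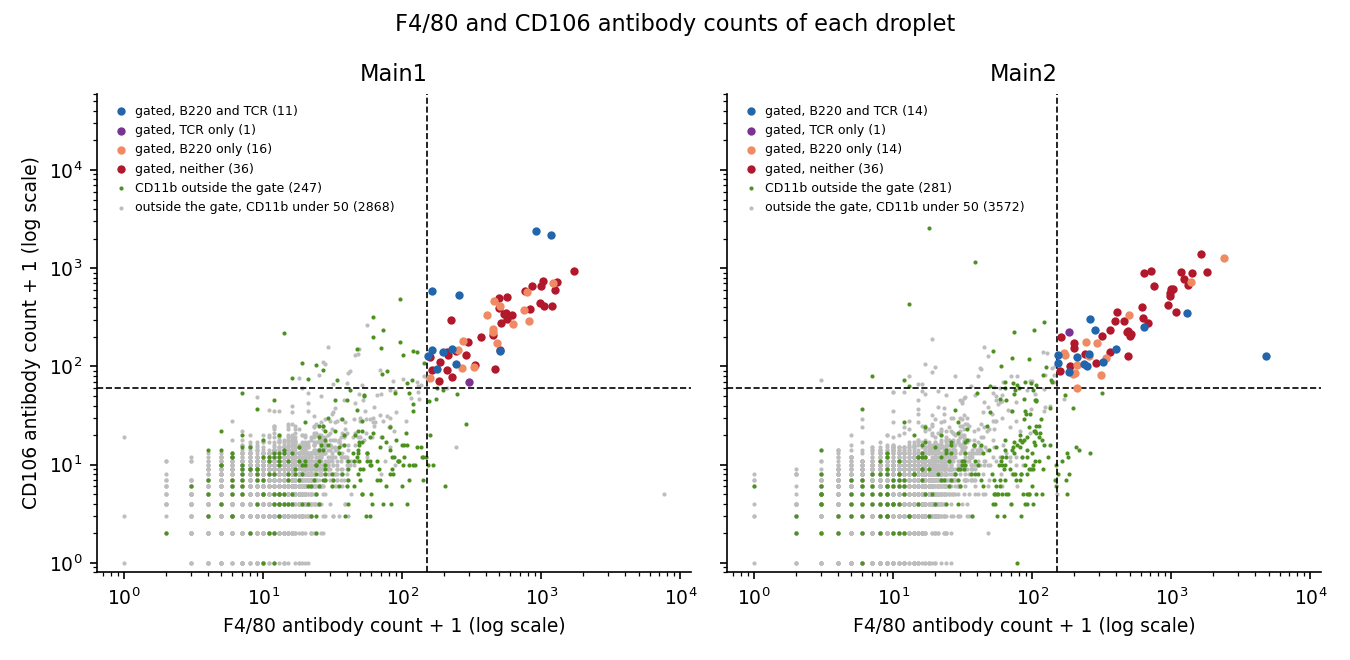
Raw F4/80 (x axis) and CD106 (y axis) antibody counts plus 1, on log axes, of each droplet in Main1 (left) and Main2 (right), with dashed lines at the limits of 150 and 60. The 129 gated droplets fill the upper right corner, and droplets with neither lymphocyte antigen, with B220 only and with both antigens (blue) all reach well past the limits.

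The 6 markers were concentrated in the B/T-negative droplets. Levels are given in CPM, a gene's UMIs scaled to a fixed total of the population's UMIs. C1qa, a chain of C1q, stood at 3261 CPM in Main1 and 3228 CPM in Main2 in B/T-negative droplets, at 33.1 and 13.8 CPM in CD11b droplets, and at 9.99 and 8.75 CPM in all other droplets. C1qb gave 2666 and 2694 CPM in B/T-negative droplets, 32.0 and 10.1 CPM in CD11b droplets, and 9.47 and 6.94 CPM in all others. Both chains were thus close between sources and far apart between populations. Hmox1 reached 2449 and 3388 CPM in B/T-negative droplets, against 19.9 and 14.7 CPM in CD11b droplets and 7.27 and 8.85 CPM in all others. Slc40a1 reached 1881 and 2067 CPM in B/T-negative droplets, against 22.1 and 30.3 CPM in CD11b droplets and 7.40 and 8.05 CPM in all others. Both genes were higher in B/T-negative droplets than in CD11b droplets and all others in each source. Spic stood at 758 and 1054 CPM in B/T-negative droplets, 8.83 and 6.42 CPM in CD11b droplets, and 11.4 and 10.8 CPM in all others. Spic was the only 1 of the 6 that was lower in CD11b droplets than in all others in both sources. Vcam1, whose protein chose the droplets and which is therefore only described, stood at 3207 and 2414 CPM in B/T-negative droplets, 6.62 and 13.8 CPM in CD11b droplets, and 3.63 and 4.53 CPM in all others. Adgre1, likewise only described, stood at 284 and 320 CPM in B/T-negative droplets, 37.5 and 31.2 CPM in CD11b droplets, and 6.62 and 4.23 CPM in all others.

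**Figure D2:**
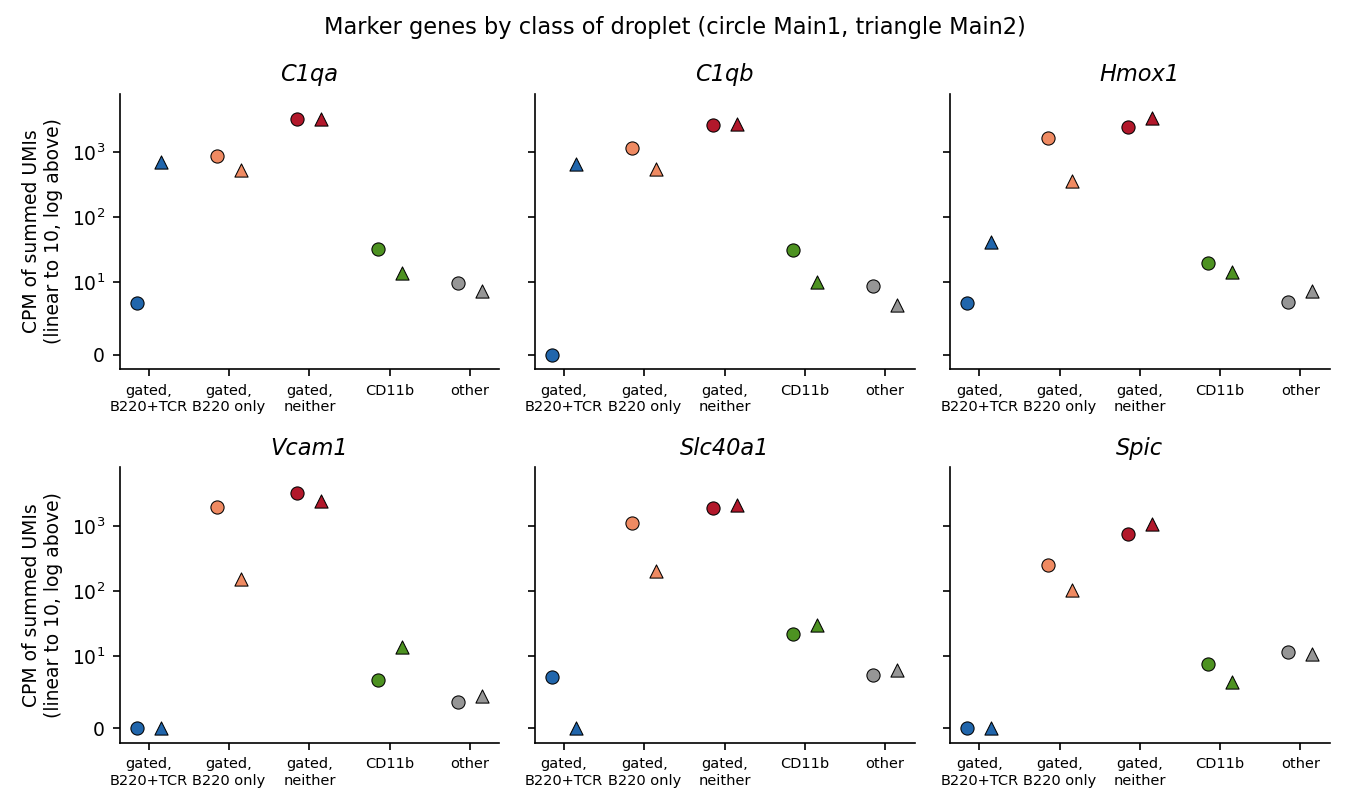
CPM of the 6 marker genes (y axis, linear to 10 and log above) in 5 populations (x axis), with a circle for Main1 and a triangle for Main2, and no error bars since each point is 1 summed library. B/T-negative droplets (red) are highest for every gene, and in droplets with both antigens (blue) only C1qa and C1qb of Main2 come above 100 CPM.

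Read per droplet, C1qa had a UMI in 91.7% of B/T-negative droplets in each source, against 3.24% and 3.20% of CD11b droplets and 1.22% and 1.66% of all others. The last values are shares outside the gate, where 1 CD11b droplet held 61 C1q UMIs. The part of free RNA in them was not tested. Median depths were 1849 UMIs in B/T-negative droplets, 2649.5 in CD11b droplets and 1777 in all others. With every droplet thinned to 1000 UMIs the shares were 83.3% and 88.9% in B/T-negative droplets, 0.810% and 1.78% in CD11b droplets, and 0.674% and 0.727% in all others. At the same depth Spic was seen in 44.4% and 52.8% of B/T-negative droplets, in 2.02% and 1.42% of CD11b droplets, and in 1.61% and 1.22% of all others. Of the 72 B/T-negative droplets, 66 (91.7%) had UMIs of at least 3 of the 6 markers, Vcam1 being counted among them, and 33 had all 6. At least 3 markers were found in 7 of 528 CD11b droplets (1.33%) and in 27 of 6968 droplets outside the gate (0.387%; 21 of the 6241 under 4000 UMIs), 1 of which had all 6. Only 4 B/T-negative droplets had no UMI of C1qa, C1qb or C1qc. All 4 were near the F4/80 limit, with 156 to 197 counts, and 2 of them had none of the 6 markers.

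B/T-positive droplets fell into kinds that differed in depth and in macrophage RNA. The 25 with B220 and TCR had a median of 11401 UMIs and 37383 antibody counts, the 30 with B220 only 2319 UMIs and 6578.5 antibody counts, and the 72 B/T-negative droplets 1849 UMIs and 4196.5 antibody counts. Of the 25, 2 had a C1q UMI, as did 24 of the 30 and 68 of the 72. At least 3 of the 6 markers were seen in 1 of the 25, in 18 of the 30 and in 66 of the 72. In the 25, F4/80 made up a median of 0.747% of all antibody counts, against 6.67% in the 30 and 16.7% in the 72, while it made up 0.870% in CD11b droplets and 0.314% in all others. By these medians, their entry into the gate thus went with a high total of antibody counts, though 1 of them had 5509. The part of the antibody total in the F4/80 and CD106 counts was not tested. Droplets with both B220 and TCR were not particular to the gate, since 138 of 6968 droplets outside it (1.98%) and 47 of the 528 CD11b droplets (8.90%) carried both.

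The 25 held no Vcam1 or Spic UMI in 261083 UMIs, where 3 UMIs would stand at 11.5 CPM. C1qa stood at 7.10 CPM in Main1 and 707 CPM in Main2 in these 25, at 878 and 537 CPM in the 30 with B220 only, and at 3261 and 3228 CPM in the 72. Nearly all C1q UMIs of the 25 were in 1 Main2 droplet, which held 221 of them among 12391 UMIs, along with 4825 F4/80 counts. The T-cell list of 14 genes summed to 6584 and 6368 CPM in the 25, to 162 and 205 CPM in the 30, and to 338 and 187 CPM in the 72, against 1889 and 1856 CPM in all other droplets. The B-cell list of 12 genes summed to 1108 and 1114 CPM in the 25, 6354 and 8516 CPM in the 30, and 1326 and 507 CPM in the 72, against 7459 and 7178 CPM in all others. Droplets with B220 only thus held B-cell RNA at about the level of the other droplets together with macrophage RNA. Those with both antigens held, in sum, more RNA of the T-cell list than of the B-cell list. The 25 were not alike, however, since 1 had 1253 UMIs, 17 of them from the B-cell list. Another had 20670 UMIs, 2 of them from that list, so the sums are weighted to the deep droplets.

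**Figure D3:**
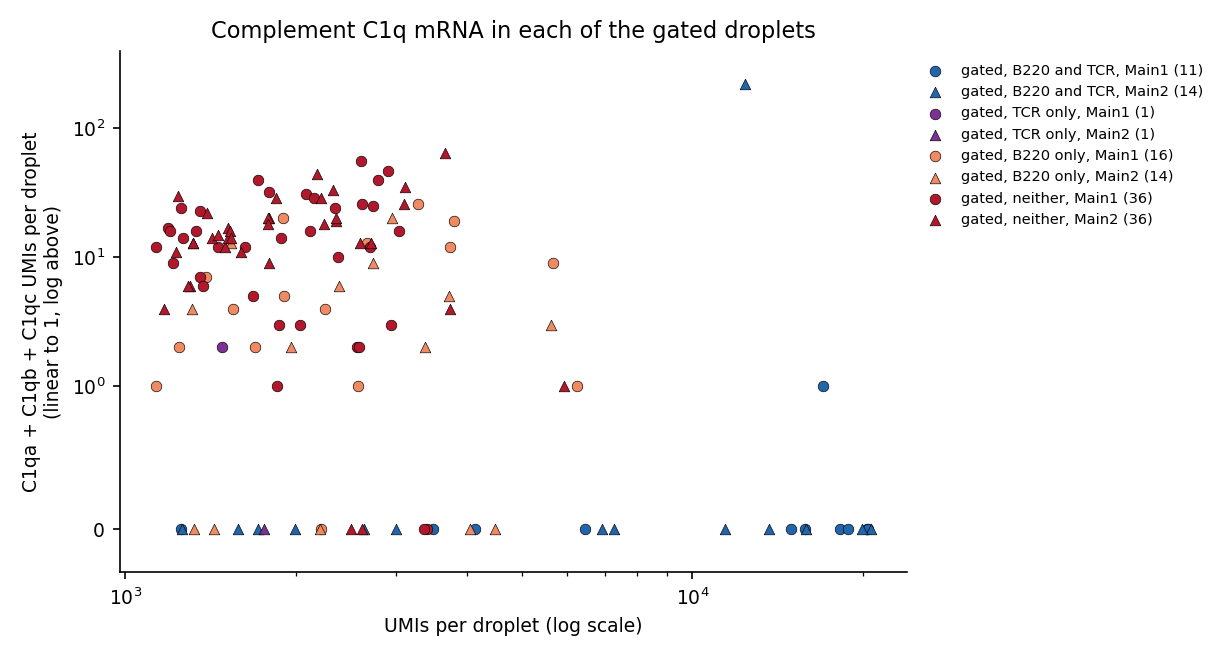
Summed C1qa, C1qb and C1qc UMIs (y axis, linear to 1 and log above) against UMIs per droplet (x axis, log scale) for each of the 129 gated droplets, coloured by class, with circles for Main1 and triangles for Main2. Most B/T-negative droplets (red) hold several C1q UMIs at 1131 to 5926 UMIs, while 23 of 25 droplets with B220 and TCR (blue) lie on 0, and 1 stands at 221.

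Genes were then compared between the gated and all other droplets on UMIs summed per source. Of 10053 genes tested with edgeR's quasi-likelihood test and Benjamini-Hochberg adjustment, 437 (4.35%) were higher and 309 (3.07%) lower in gated droplets at an adjusted p under 0.05. With the B/T-negative droplets alone, 268 of 10004 genes (2.68%) were higher and 267 (2.67%) lower. With the B/T-positive droplets alone, 149 of 10014 (1.49%) were higher and 165 (1.65%) lower. A list of 24 red pulp macrophage identity genes, which includes the 6 markers, had 21 members tested, and all 21 passed as higher. Their median log2 fold was 6.19, against -0.08 for all genes tested. The UMI minimum for testing counted both populations together. A list member rare outside the gate could thus be tested only if it was high inside. With B/T-negative droplets all 20 tested members were higher (median 6.91, all genes -0.55), and with B/T-positive droplets alone 13 of 19 were. The folds of C1qa were 7.01 ± 0.19 on the log2 scale with all gated droplets (± is the standard error of the fit, adjusted p 7.28e-11) and 8.21 with B/T-negative droplets (adjusted p 4.76e-05). Spic gave 4.70 ± 0.21 (adjusted p 1.11e-08) and 6.13 (adjusted p 0.000353). Spic did not pass in the B/T-positive droplets alone (1.82, adjusted p 0.0659).

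Beyond the markers, the 12 largest increases included growth factor, lectin, integrin and receptor genes. Igf1, an insulin-like growth factor, had 365 and 480 CPM in B/T-negative droplets, against 0.779 and 0.704 CPM in all others. Fcna had 1313 and 1681 CPM in B/T-negative droplets and 2.60 and 3.02 CPM in all others. Cd5l, a secreted macrophage scavenger protein, had 257 and 293 CPM and 0.908 and 1.21 CPM in the same populations. The UMI minimum for testing counted both populations together. A gene as rare outside the gate as Igf1 or Cd5l could reach it only through the gated droplets, so its direction was partly fixed by this filter. Igf1, Fcna and Cd5l were all higher in both sources, a direction that the rule for naming genes required of the gated droplets. Their log2 folds with all gated droplets were 7.71 ± 0.38 for Igf1, 7.66 ± 0.20 for Fcna and 6.69 ± 0.42 for Cd5l (adjusted p 2.22e-07 or less). Itgad, the integrin chain CD11d, had 189 and 320 CPM in B/T-negative droplets against 0.649 and 0.503 CPM in all others. Ubd, a ubiquitin-like protein, differed between sources, at 122 CPM in Main1 and 494 CPM in Main2, and stood at 0.260 and 1.006 CPM in all others. Gfra2, a receptor for a neurotrophic factor, had 217 and 307 CPM in B/T-negative droplets against 0.649 and 1.006 CPM in all others. Treml4, a receptor that binds dying cells, rose by a log2 fold of 4.68 ± 0.34 with all gated droplets (adjusted p 1.06e-06).

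Iron and haem genes were raised in part. Of 26 listed, 23 were in the table and 22 were tested, and 9 were higher and none lower in gated droplets than in all others (median log2 fold 0.81). With B/T-negative droplets 9 of 22 were higher and none lower (median 1.45). Ftl1, the ferritin light chain, had 28812 and 34613 CPM in B/T-negative droplets, 4467 and 4409 CPM in CD11b droplets, and 2469 and 2570 CPM in all others. Its log2 fold over all others was 2.39 ± 0.13 with all gated droplets (adjusted p 4.56e-08) and 3.42 with B/T-negative droplets (adjusted p 0.000351). Fth1, the heavy chain, rose less, with a log2 fold of 0.76 ± 0.12 with all gated droplets (adjusted p 0.000977) and 1.61 with B/T-negative droplets (adjusted p 0.00338). Slc48a1, which carries haem out of the phagolysosome, rose by 2.42 ± 0.20 (adjusted p 3.64e-06), and Trf, the plasma iron carrier transferrin, by 3.59 ± 0.18 (adjusted p 3.53e-08). Slc11a1, a metal transporter of the phagosome, stood at 108 and 173 CPM in B/T-negative droplets, against 3.37 and 2.31 CPM in all others, and passed in both fits. Blvrb, a biliverdin reductase, passed with B/T-negative droplets (1.54, adjusted p 0.0100) but not with all gated droplets (0.44 ± 0.17, adjusted p 0.153). It stood at 460 and 574 CPM in B/T-negative droplets and 131 and 175 CPM in all others. The CD71 antibody, against the transferrin receptor, had a median of 16.5 counts in B/T-negative droplets, 14 in CD11b droplets and 16 in all others.

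Of 16 complement genes, 10 were in the table and 7 tested, and 4 were higher, namely C1qa, C1qb, C1qc and Cfp. The 3 C1q genes lie next to each other on chromosome 4 (mm10 positions 136880129 to 136898803). Properdin (Cfp), which stabilises the alternative pathway convertase, had 934 and 1094 CPM in B/T-negative droplets, 80.6 and 66.9 CPM in CD11b droplets, and 23.0 and 19.4 CPM in all others. C3 and C5ar1, the central component and a receptor of its pathway, did not pass against all other droplets.

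Receptors for uptake were higher in gated droplets for 12 of 17 tested of 31 listed (median log2 fold 2.62), and for 10 of 16 with B/T-negative droplets (median 4.06). None was lower. Axl, a receptor tyrosine kinase that binds phosphatidylserine bridges, had 704 and 760 CPM in B/T-negative droplets, 4.42 and 6.42 CPM in CD11b droplets, and 2.60 and 2.82 CPM in all others. Mrc1, the mannose receptor, had 460 and 520 CPM in B/T-negative droplets, 0 and 8.25 CPM in CD11b droplets, and 0.649 and 1.91 CPM in all others. Their log2 folds over all others with all gated droplets were 6.50 ± 0.26 and 7.002 ± 0.37 (adjusted p 4.77e-08 or less). Mertk, the sister receptor of Axl, had 43 UMIs in 25 gated droplets and none in any of the 6968 others. It was too sparse for the test, and against 3 UMIs over all other droplets it was at least 510-fold higher in gated droplets. Cd163 (haemoglobin-haptoglobin uptake), Timd4 (a phosphatidylserine receptor) and Nr1h3 (a nuclear receptor for oxysterols) were also below the limit for testing, with 16, 29 and 30 UMIs in gated droplets against 17, 13 and 13 in all others. The Fc receptor genes Fcgr3, Fcgr4 and Fcer1g rose together with the adaptor Tyrobp. Fcer1g had 2964 and 3428 CPM in B/T-negative droplets, 1379 and 1449 CPM in CD11b droplets, and 207 and 212 CPM in all others.

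Lysosomal genes were higher for 15 and lower for 1 of 34 tested (median log2 fold 0.86), and for 17 and none with B/T-negative droplets (median 1.49). Ctsb, a cysteine protease, had 3343 and 4108 CPM in B/T-negative droplets, 320 and 333 CPM in CD11b droplets, and 150 and 135 CPM in all others. Its log2 fold over all others was 3.27 ± 0.15 with all gated droplets (adjusted p 1.11e-08). Creg1, a lysosomal glycoprotein, rose by 3.02 ± 0.17 (adjusted p 1.01e-07) and Cd68, a lysosomal membrane glycoprotein of macrophages, by 3.22 ± 0.20 (adjusted p 1.99e-07). Ctsh, another cysteine protease, was the member that fell, by 1.22 ± 0.17 on the log2 scale (adjusted p 0.000563), and it did not pass with B/T-negative droplets (-0.64, adjusted p 0.183). Lipid genes were higher for 9 of 16 tested and lower for none (median 1.34), and for 8 of 15 with B/T-negative droplets (median 2.17). Lpl, lipoprotein lipase, had 162 and 267 CPM in B/T-negative droplets and 0.519 and 1.61 CPM in all others. Apoe, an apolipoprotein, had 2855 and 2908 CPM in B/T-negative droplets, 1058 and 960 CPM in CD11b droplets, and 609 and 491 CPM in all others. Hpgd, which inactivates prostaglandins, had 352 and 213 CPM in B/T-negative droplets and 4.67 and 3.72 CPM in all others. In Apoc1, 1 droplet held 58.6% of the gated UMIs.

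Transcription factors were divided. Of 20 tested, 6 were higher, among them Spic, Maf, Id2 and Zeb2, and 3 lower (Irf8, Id3 and Tcf4) in gated droplets than in all others (median log2 fold 0.98). With B/T-negative droplets 5 of 19 were higher and 2 lower (median 0.91). Maf, a factor of macrophage differentiation, had a log2 fold of 3.24 ± 0.20 (adjusted p 1.75e-07) with all gated droplets. Spi1 had 392 and 227 CPM in B/T-negative droplets, 341 and 368 CPM in CD11b droplets, and 118 and 116 CPM in all others. It did not pass against all others, with all gated droplets (-0.09 ± 0.21, adjusted p 0.874) or with B/T-negative ones (1.17, adjusted p 0.0741). Of 17 chemokine, cytokine and receptor genes tested, 8 were higher and none lower with all gated droplets (median 1.28), and 8 higher and 1 lower with B/T-negative ones (median 1.96). Ccl24, an eosinophil-attracting chemokine, had 257 and 400 CPM in B/T-negative droplets and 3.37 and 3.52 CPM in all others. Il18, an interleukin of the IL-1 family, had 298 and 280 CPM in B/T-negative droplets and 7.27 and 5.53 CPM in all others. Csf1r, the receptor for the macrophage growth factor CSF1, rose by 4.76 ± 0.19 (adjusted p 3.56e-09). Ccl5, a chemokine of T and NK cells, was the lower one, at -4.80 on the log2 scale with B/T-negative droplets.

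Genes of MHC class II, which presents peptides to CD4 T cells and is abundant in B cells, were lower for 9 of 10 tested (median log2 fold -1.32), and for 5 of 10 with B/T-negative droplets (median -0.88). H2-Aa had 2842 and 3081 CPM in B/T-negative droplets, 3240 and 3939 CPM in CD11b droplets, and 5068 and 5284 CPM in all others. Cd74, the invariant chain, had 11814 and 13258 CPM in B/T-negative droplets, 9850 and 11268 CPM in CD11b droplets, and 17314 and 17996 CPM in all others. The MHCII antibody median was 625.5 counts in Main1 and 808.5 in Main2 in B/T-negative droplets, 114 and 113 in CD11b droplets, and 882 and 685 in all others. Of 15 immediate early and heat shock genes, which respond to dissociation, none passed with edgeR in either direction with all gated or with B/T-negative droplets. At an unadjusted p under 0.05 none stood out with all gated droplets, by edgeR (20.5% of all genes tested) or DESeq2 (8.99%). With B/T-negative ones 6 were higher (6.38% of all genes) and 1 lower (11%) at that p by edgeR. Without the 25 droplets with both antigens 4 passed as higher (4.23% of all genes) and none as lower (3.14%). Medians were 0.06 and 0.14, and Fos had 338 and 293 CPM in B/T-negative droplets, 236 and 512 CPM in CD11b droplets, and 71.5 and 162 CPM in all others.

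Markers of other cell types were read as lists. B-cell genes were lower in gated droplets for all 12 tested (median log2 fold -1.81), and for 11 of 12 with B/T-negative droplets (median -3.70). Cd79a, a chain of the B-cell receptor complex, stood at 338 CPM in Main1 and 13.3 CPM in Main2 in B/T-negative droplets, against 1871 and 1834 CPM in all others. T-cell genes went the other way depending on the droplets summed. With all gated droplets 13 of 14 were higher and none lower (median 0.92), while with B/T-negative droplets none was higher and 8 were lower (median -3.01). Without only the 25 droplets with both antigens, none was higher and 9 were lower. Cd3e, a chain of the TCR complex, had 511 and 673 CPM in the 25 and 40.6 and 0 CPM in the 72, against 178 and 170 CPM in all others. The gate's higher T-cell RNA thus lay in the 25. Monocyte genes were higher for 2 and lower for 2 of 12 tested (median -0.32). The higher ones were Ace and the fibronectin gene Fn1, of whose gated UMIs 1 droplet held 95.2%. Conventional dendritic cell genes were higher for 1 of 8 (Cd209a) and lower for none (median 0.48), with 42.9% of its gated UMIs in 1 droplet. With B/T-negative droplets Cd209a was higher (2.68% of all genes) and Ccr7 lower (2.67%). Without the 25 droplets with both antigens, Cd209a, Itgax and Batf3 were higher (4.23% of all genes) and Ccr7 lower (3.14%). Clec9a, Xcr1 and Flt3 had at most 13.5 CPM in B/T-negative droplets of either source. Neutrophil genes were lower for 9 of 10 (median -4.50, or -3.26 with the 2 unseen genes at their bound). They summed to 1001 and 1321 CPM in B/T-negative droplets, 45503 and 47416 CPM in CD11b droplets, and 5603 and 5462 CPM in all others. Plasma cell genes were lower for 6 of 10 and NK cell genes for 2 of 7. Marginal zone macrophage genes could hardly be read, since 1 of 8 was in the table, Cd209d, with 2 UMIs in gated droplets. Of platelet genes 1 was tested, Pf4, which passed as higher although all of its gated UMIs lay in 1 Main2 droplet. The 1 endothelial and stromal gene tested did not pass here and was lower than in CD11b droplets.

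Erythroid genes split into globins and others. The 4 globin genes were higher in gated droplets than in all others by edgeR. Their alpha and beta pairs are near-identical copies that reads may not separate. Car1, Car2, Klf1 and Rhd were among the lower of 13 tested (median -1.63, or -0.37 with 3 unseen genes at their bound). By DESeq2 none of the 13 was higher at an unadjusted p under 0.05, and 3 were lower (8.99% of all genes in either direction). Hba-a1, an alpha globin, had 12085 and 20395 CPM in B/T-negative droplets, against 2086 and 1486 CPM in all others. Its log2 fold was 1.62 ± 0.31 with all gated droplets (adjusted p 0.00522) and 2.93 with B/T-negative ones (adjusted p 0.0100). The rise rested on few droplets. In 7 of 129 gated droplets globins made up 10% or more of UMIs, as in 48 of 6968 others. Among B/T-negative droplets, 42 of 72 had a globin UMI (58.3%), against 37.9% of all others, and 1 Main2 droplet, with 93.5% of its UMIs from globins, held 50.7% of the globin UMIs of the 72. Without the droplets at 10% or more, summed globins stood at 407 and 714 CPM in gated droplets and at 455 and 774 CPM in all others. In the 66 remaining B/T-negative droplets they stood at 828 and 1624 CPM. With limits of 300 for F4/80 and 120 for CD106, Hba-a1 turned to -0.67 and Hbb-bs to -0.62, and neither passed. Whether the globin RNA came from engulfed cells, attached cells or free RNA was not tested. Of the 7 droplets, 2 had a raised count of the erythroid Ter119 antibody, 570 and 1084, while the other 5 had 16 or fewer.

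The 8 largest decreases by the rule for naming genes, Ly6g, Klf1, Rhd, Iglv3, Igkv6-17, Samd10, Hemgn and Mmp8, had no UMI in the gated droplets. Against 3 UMIs over the gated droplets they were at least 2.21-fold (Mmp8) to at least 3.33-fold (Ly6g) lower there. They reached the UMI minimum through the other droplets alone, so their direction was fixed by that filter. Klf1 and Hemgn belong to erythroid precursors, Rhd is an erythrocyte antigen, Ly6g and Mmp8 mark neutrophils, and Iglv3 and Igkv6-17 are immunoglobulin light chain segments, whose sequences are similar to other members of their families.

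**Figure D4:**
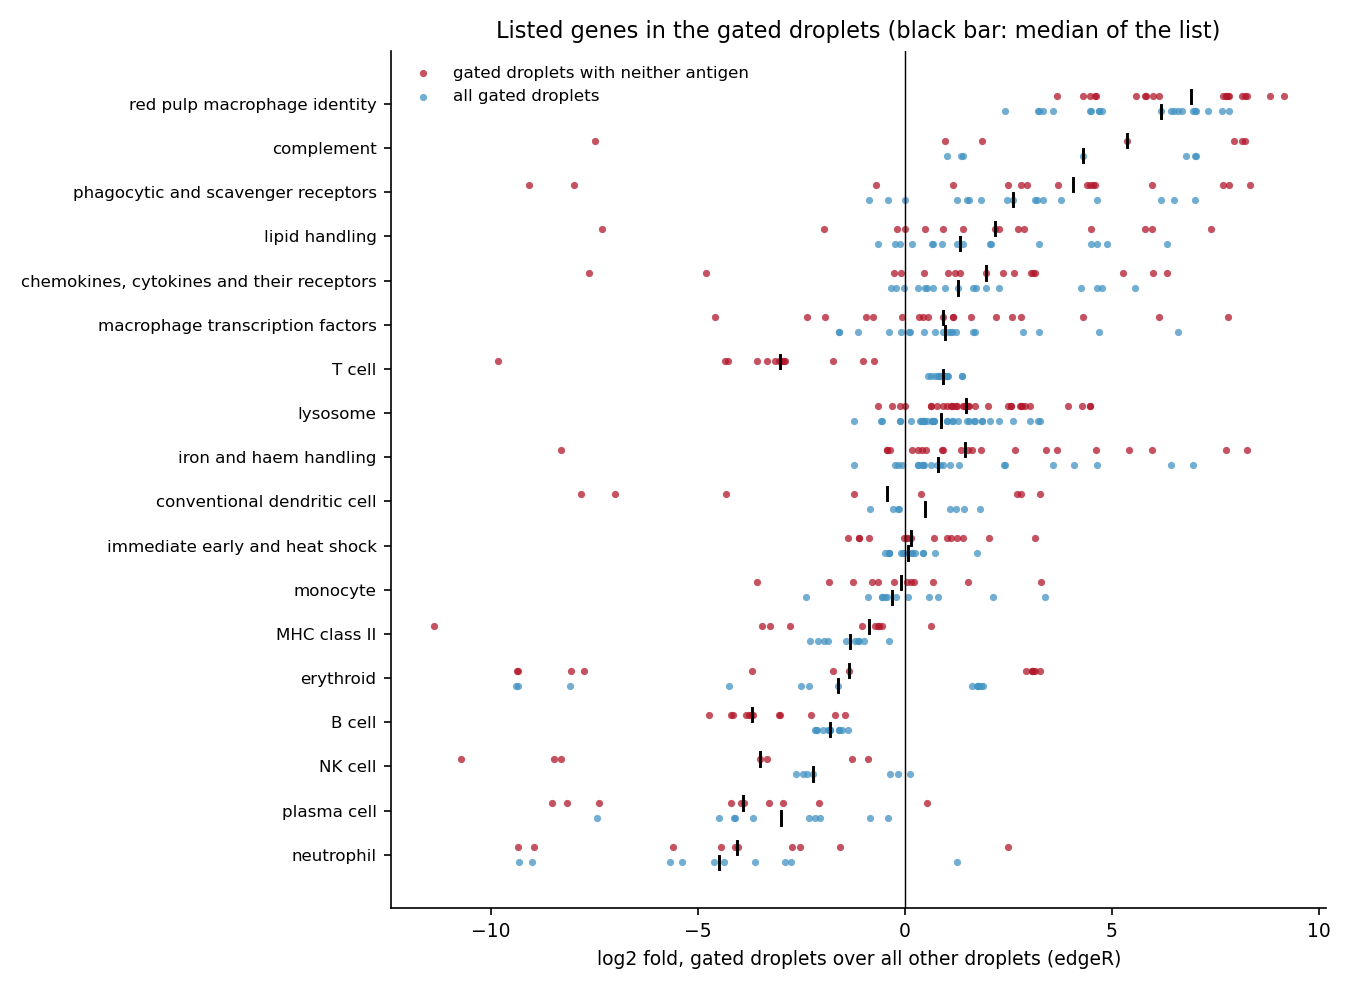
Log2 fold of gated over all other droplets (x axis) for each listed gene tested, with lists on the y axis, B/T-negative droplets in red, all 129 gated droplets in blue, and black bars for list medians. Folds beyond -7 belong to genes with no UMI or hardly any in the gated droplets and are not bounds. Macrophage identity lies far to the right in both, whereas the T-cell list has its median at -3.01 in red and at 0.92 in blue.

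Set against the CD11b droplets, the gated droplets were compared with other myeloid cells. Of 5343 genes tested, 247 (4.62%) were higher and 293 (5.48%) lower in gated droplets. With B/T-negative droplets, 191 of 4795 (3.98%) were higher and 124 (2.59%) lower. Of the identity list, 20 of 21 were higher (median log2 fold 4.25, all genes 0.01), and 19 of 19 with B/T-negative droplets (median 5.20, all genes -0.14). The folds were 5.80 ± 0.20 for C1qa, 5.96 ± 0.21 for Hmox1, 4.74 ± 0.20 for Slc40a1 and 5.31 ± 0.30 for Spic (adjusted p 7.31e-40 or less). These p-values rest on a variance trend shared by all genes, since 1 residual degree of freedom remained. Of the iron list 10 of 15 were higher and none lower (median 1.24), and 9 of 15 with B/T-negative droplets (median 2.42). Ftl1 rose by 1.65 ± 0.14 (adjusted p 3.45e-23) and Blvrb by 2.49 ± 0.25 (adjusted p 1.23e-17).

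Genes of monocytes and neutrophils were lower in gated droplets. Of the monocyte list 9 of 12 fell and none rose (median -1.73), and with B/T-negative droplets 6 fell (median -2.17). Ly6c2, a surface antigen of inflammatory monocytes, had 54.1 and 307 CPM in B/T-negative droplets against 798 and 997 CPM in CD11b droplets, a log2 fold of -2.15 ± 0.17 with all gated droplets (adjusted p 3.54e-25). Ccr2, a chemokine receptor of these cells, had 94.7 and 40.0 CPM against 345 and 404 CPM in the same populations (-2.57 ± 0.24, adjusted p 4.98e-20). Neutrophil genes fell for 10 of 10, as for S100a8, with 338 and 654 CPM in B/T-negative droplets against 19534 and 21366 CPM in CD11b droplets. Lyz2, lysozyme of myeloid cells, had 3640 and 5482 CPM in B/T-negative droplets, 9213 and 10298 CPM in CD11b droplets, and 1158 and 1197 CPM in all others. It was thus lower in gated droplets than in CD11b droplets (-1.80 ± 0.15, adjusted p 6.92e-24) and higher than in all others (1.16 ± 0.23, adjusted p 0.00647). Ly6g, Mmp8, Cebpe, Fcnb, Gzmb and H2-M2 had no UMI in gated droplets and were at least 28.5, 17.9, 18.2, 12.7, 10.8 and 8.85-fold lower there than in CD11b droplets. These genes reached the UMI minimum through the CD11b droplets alone, so their direction was fixed by that filter. Igha fell by 6.72 ± 0.22 on the log2 scale (adjusted p 2.14e-74), and plasma cell genes summed to 582 and 667 CPM in B/T-negative droplets against 10160 and 6924 CPM in CD11b droplets, so the CD11b droplets were not purely myeloid. Its NK cell genes summed to 2307 and 2491 CPM, against 81.2 and 66.7 CPM in B/T-negative droplets.

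Several smaller differences from CD11b droplets changed with the droplets summed. Spi1 fell by 1.60 ± 0.21 on the log2 scale with all gated droplets (adjusted p 2.70e-11) and was at -0.12 with B/T-negative ones (adjusted p 0.84). It was also lower without the 25 droplets with both antigens (-0.60, adjusted p 0.0471), and with B/T-positive droplets left out of both populations (-0.70, adjusted p 0.0473). Cst3, cystatin C, fell by 0.97 ± 0.14 (adjusted p 9.57e-10) and was at 0.28 with B/T-negative droplets (adjusted p 0.37). Tyrobp fell by 0.50 ± 0.13 (adjusted p 0.00447) but rose by 0.85 with B/T-negative droplets (adjusted p 0.00429), and was at 0.30 with B/T-positive droplets left out of both populations (adjusted p 0.20). Of MHC class II genes 7 of 10 fell (median -0.63), 1 fell with B/T-negative droplets (median -0.11), and 2 rose (6.69% of all genes) and none fell (5.95%) without the 25 droplets with both antigens. With B/T-positive droplets left out of both populations, none of 9 rose (7.98% of all genes) and 3 fell (7.09%). Of 14 immediate early genes none passed by DESeq2 (50 of 5343 genes in all were lower). By edgeR 5 fell (5.48% of all genes) with all gated droplets. With B/T-negative ones none of 12 passed by edgeR, 2 being higher (9.11% of all genes) and 1 lower (11.1%) at an unadjusted p under 0.05. Junb and Btg2 fell without the 25, and Junb, Nr4a1 and Btg2 fell with B/T-positive droplets left out of both populations. Of the lysosomal list 9 rose and 3 fell of 30 with all gated droplets (median 0.44), and 17 rose and 1 fell with B/T-negative ones (median 1.31). Uptake receptors rose for 4 and fell for 1 of 13 (median 0.58), and rose for 9 of 12 with B/T-negative droplets (median 1.85). Complement genes rose for 4 of 7, while C3 and C5ar1 fell with all gated droplets and did not pass with B/T-negative ones. C5ar1 also fell without the 25 droplets with both antigens (-2.44, adjusted p 0.0228). Lipid genes rose for 7 and fell for 1 of 13 (median 0.61), with Alox5ap as the member that fell. Transcription factors rose for 4 and fell for 3 of 18 (median 0.04), and chemokine and cytokine genes rose for 4 and fell for 7 of 16 (median -0.56). T-cell genes rose for 6 of 14 and B-cell genes for 5 of 12 by edgeR (4.62% of all genes). None of either list passed with DESeq2, which called 58 of 5343 genes higher and 50 lower and gave 1347 no adjusted p. With so few calls, their absence is not a result about these lists. With B/T-negative droplets none of either list rose, and 8 T-cell genes fell. However, 147 of the 528 CD11b droplets (27.8%) were themselves B/T-positive. With such droplets left out of both populations, none of 4 T-cell genes tested passed. Of 5 B-cell genes tested then, 2 rose (7.98% of all genes) and none fell (7.09%).

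Within the gate, B/T-positive droplets were compared with B/T-negative ones. The antibodies that split them also mark lymphocytes, so the rise of lymphocyte genes here follows the choice. Of 3269 genes tested, 407 (12.5%) were higher and 421 (12.9%) lower in B/T-positive droplets by edgeR, whereas DESeq2 called 37 higher and 130 lower. All 23 identity genes tested were lower (median -3.13, all genes 0.08). The minimum of 20 UMIs counted both classes together, so a gene rare in either was tested only if high in the other. The direction of sparse genes was thus partly fixed by this filter. C1qa stood at 216 and 658 CPM in B/T-positive droplets against 3261 and 3228 CPM in B/T-negative ones (-3.11 ± 0.23, adjusted p 4.56e-39). In Main2, 1 droplet held 85 of the 106 C1qa UMIs of the B/T-positive droplets, which stood at 141 CPM without it. Spic stood at 59.3 and 24.8 CPM against 758 and 1054 CPM in the same order (-4.40 ± 0.37, adjusted p 5.90e-30). Both were far apart in each source. Among genes outside the 6 markers, Clec4n (a C-type lectin), Siglece (a sialic acid receptor), Kcnj10 (a potassium channel), Adap2os, Sema6d (a semaphorin) and Pira2 (an immunoglobulin-like receptor) fell most, by log2 folds of -4.67 to -5.19. Kcnj10 had 32 UMIs in B/T-negative droplets, 2 in B/T-positive ones and 6 in all 6968 droplets outside the gate. Bcl11b, Kbtbd11, Gimap7, Rflnb, Ramp1 and Kcnn4 had no UMI in B/T-negative droplets and were at least 6.01-fold to at least 10.4-fold higher in B/T-positive ones. They reached the UMI minimum through the B/T-positive droplets alone, so their direction was fixed by it. Bcl11b, a T-lineage transcription factor, had 205 and 217 CPM in B/T-positive droplets and 64.9 and 54.9 CPM in all droplets outside the gate.

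The fall of macrophage genes was present in the B220-only droplets too, where T-cell RNA was low. C1qa fell by 2.21 (adjusted p 2.43e-09) and Spic by 2.30 (adjusted p 2.16e-05) on the log2 scale in B220-only against B/T-negative droplets (edgeR). Hmox1 was unequal between sources, at 1687 CPM in Main1 and 358 CPM in Main2 in B220-only droplets, against 2449 and 3388 CPM in B/T-negative ones. Vcam1 likewise had 1941 and 153 CPM in B220-only droplets, against 3207 and 2414 CPM in B/T-negative ones. MHC class II genes were the other way up, at 25116 and 38282 CPM in sum in B220-only droplets and 19271 and 21875 CPM in B/T-negative ones. Among droplets under 4000 UMIs, which leave out most of those with both antigens, 16 genes passed in all, 12 higher and 4 lower in B/T-positive droplets.

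At the limits of the gate all 6 markers stood lower than in the whole gate. All 6 were also higher just outside the limits than just inside, as for Spic at 123 and 27.6 CPM (16 and 3 UMIs). The 25 gated droplets just inside (F4/80 under 200 or CD106 under 80) had C1qa at 138 CPM, 15 of them were B/T-positive and 9 had a C1q UMI. The 35 droplets just outside (F4/80 of 100 to 149 with CD106 of 60 or more, or CD106 of 40 to 59 with F4/80 of 150 or more) had C1qa at 462 CPM, with 22 B/T-positive and 21 with a C1q UMI. C1q RNA did not stop at the limits. Droplets with F4/80 alone at or over its limit numbered 27, with C1qa at 402 CPM, Vcam1 at 38.3 CPM, Ly6c2 at 1063 CPM and a median of 556 CD11b counts. Droplets with CD106 alone numbered 98, with C1qa at 32.4 CPM. The whole gate had C1qa at 1269 CPM and the 6843 droplets below both limits 6.08 CPM. These values are descriptions, since the limits were set with results of these data known.

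F4/80 ran from 156 through a median of 507 to 1793 counts in B/T-negative droplets, against a median of 37 in CD11b droplets and 11 in all others, and CD106 from 70 through 300 to 1383 counts, against medians of 9 and 5. The other antibodies gave a surface profile. CD44, an adhesion receptor, had a median of 550.5 counts in B/T-negative droplets, 291 in CD11b droplets and 46 in all others. CD16/32, which binds Fc receptors, had 208, 121 and 78 counts in the same populations. CD31, an adhesion molecule of endothelium and leukocytes, had 97.5, 21 and 32 counts. All 3 were higher in B/T-negative droplets than in CD11b droplets or all others, but this was not particular to them. The lymphocyte antigens CD4 (28, 9 and 6 counts), CD8a (7.5, 3 and 2) and CD90 (162.5, 122 and 56) were higher there too. CD3 had 2 counts in each population, and B220 had 43.5, 28 and 521. CD11b itself had 45.5 counts in B/T-negative droplets against 238.5 in CD11b droplets, where it was the rule. CD11b reached 50 counts in 72 of the 129 gated droplets. Its gene Itgam had no UMI in the 72 B/T-negative droplets. CD11c had 19 counts in B/T-negative droplets, 6.5 in CD11b droplets and 2 in all others. CD169, an antigen of metallophilic macrophages, had 5, 2 and 1. Ly6C had 17 counts in B/T-negative droplets, 83 in CD11b droplets and 13 in all others. In the 25 droplets with both antigens nearly every antibody was high, with medians of 14700 counts for the T-cell antigen CD90, 1358 for CD5 and 3223 for CD45, and 2071 for CD44.

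**Figure D5:**
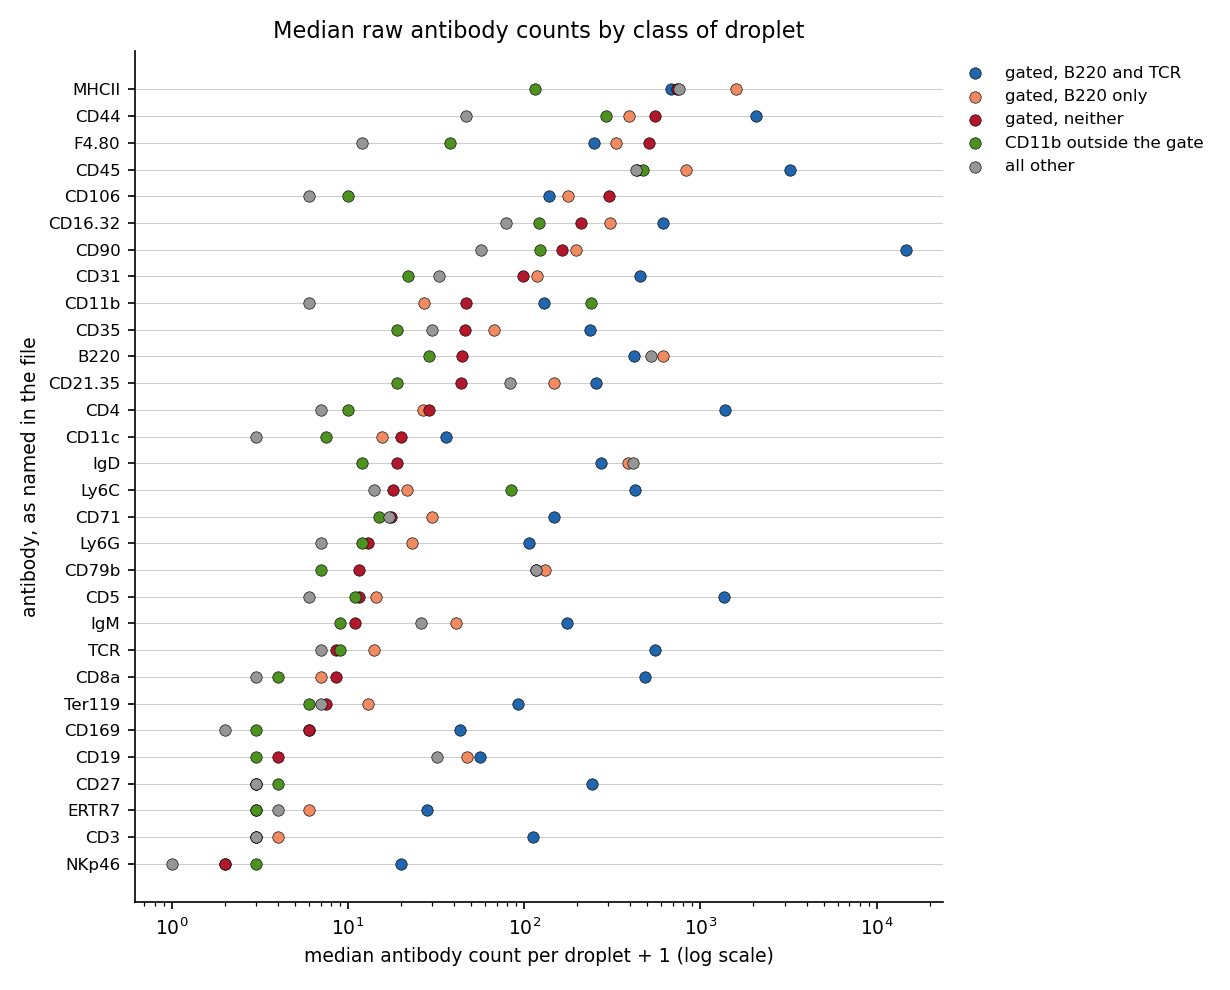
Median raw count plus 1 (x axis, log scale) of the 30 antibodies (y axis) in 5 classes of droplet, both sources together. Red points (B/T-negative) lie right of green (CD11b) and grey (all other) for F4.80, CD106, CD44, CD16.32 and CD31. They do so for others too, among them CD4, CD8a, CD90 and CD11c. Blue points (B220 and TCR) lie far right for most antibodies.

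Among the 72 B/T-negative droplets the 2 chosen antibodies rose together, with a Spearman rho of 0.89 across droplets. CD106 counts followed Vcam1 UMIs with a rho of 0.58, and F4/80 counts followed Adgre1 UMIs with 0.23. C1qa UMIs followed F4/80 with a rho of 0.42 and CD106 with 0.46, and Spic UMIs followed CD106 with 0.40. These droplets share 2 libraries, and F4/80 counts also followed the total of antibody counts (rho 0.50) but hardly the UMIs per droplet (rho -0.13). Adgre1 was sparse, with 45 UMIs in 29 of the 72 droplets, while Vcam1 had 418 UMIs in 53.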

How the data were processed

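CITE-seq RNA and antibody counts were read from the deposited tables, whole numbers per gene or antibody and droplet, one RNA and one antibody table for Main1 and Main2. Per the submitters' processing notes the authors used bcl2fastq, Cell Ranger 3.0.2 and the mm10 build to make the counts; none of them names the antibody counter. The RNA tables list 11713 genes (11682 with a symbol), each with a UMI in at least 15 droplets, droplets with at least 1098 UMIs and 0 mitochondrial genes. No droplet or doublet was removed. The 30 antibody counts were used raw. UMIs were summed per source and population and tested with edgeR 4.0.16 (R 4.3.3; quasi-likelihood, TMM scaling) with source as a block, which leaves 1 residual degree of freedom, on genes with at least 50 UMIs, or 20 within the gate. The pairing is by construction, since both populations of a source come from the same library. Calls are at a Benjamini-Hochberg adjusted p under 0.05. Cells were not treated as replicates. Gated totals were 495569 UMIs, CD11b totals 1996480 and all other totals 17643942, so gated values are the least precise. Binomial intervals are exact (Clopper-Pearson, 95%). Named genes are the 6 markers, list members with the largest folds or defining members that did not pass, and the 12 highest and 8 lowest called folds per comparison (6 and 6 within the gate) with the same direction in both sources and no droplet over 25% of the UMIs of the higher population; list members with 1 dominant droplet are given with its share. Members, limits and lists were chosen with earlier results of these data known. Alternatives were DESeq2 1.42.0, no TMM scaling, other UMI minimums, no filter, no block, other antibody limits, and leaving out a source or classes of droplet. Recovery was tested on simulated data. Values of some list members are not reported here.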

Additional observations from a re-analysis of the deposited data

How the results depend on the processing

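Compared with all other droplets, 746 genes differed in the main setting. DESeq2 called 392, limits of 100 for F4/80 and 40 for CD106 gave 1295, limits of 300 and 120 gave 405, and the B/T-positive droplets alone gave 314. Without the replicate block the count was 661. Compared with CD11b droplets, the main count was 540, against 329 with a minimum of 200 UMIs, 818 with CD11b of 200 or more, 108 with DESeq2, 260 with the stricter F4/80 and CD106 limits, 315 without B/T-positive droplets and 379 without the replicate block. Within the gate the main count was 828, against 361 with a minimum of 50 UMIs, 167 with DESeq2, 213 for B220-only droplets, 16 under 4000 UMIs and 641 without the replicate block. The share of droplets gated was 2.47% with the looser limits, 1.03% with the stricter ones and 1.015% without B/T-positive droplets. With 1 source left out, gated medians ranged from 391 to 451 for F4/80, 214 to 255 for CD106 and 504 to 540 for CD44. Counts of genes could not be tested then, as no residual degree of freedom remained.

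Without TMM scaling the share of higher calls against all others was 66.7%, against 58.6% in the main setting. Under the stricter limits 66.9% of calls against CD11b droplets were higher, against 45.7%, with no filter 36.2%, and by DESeq2 within the gate 22.2%, against 49.2%. Against all others, log2 folds turned round in B/T-positive droplets alone for Fth1 (-0.10), Blvrb (-0.89), Hba-a1 (-1.22) and Hbb-bs (-1.31), and under the stricter limits for Cd3e (-0.18), Trbc2 (-0.0012), Hba-a1 (-0.67) and Hbb-bs (-0.62). Cd3e was -2.50 and Trbc2 -1.73 under 4000 UMIs, -3.34 and -4.36 without B/T-positive droplets, and -3.12 and -3.00 without droplets with both antigens. Igha was 0.27 with the looser limits. Against CD11b droplets Cst3 was 0.047 under 4000 UMIs and 0.28 without B/T-positive droplets, and Ccl6 was 0.41 under the stricter limits, 0.059 without B/T-positive droplets and -1.47 to 0.11 with a source left out. The cause was not tested. Alternatives on depth under 4000 UMIs, on B/T-positive droplets alone or left out of both populations, on droplets with both antigens, and on B220-only droplets were chosen after seeing the data. Of 813 values of 65 genes against all others, 727 kept direction and call, as did 643 of 674 for 50 genes against CD11b droplets and 135 for 22 genes within the gate, where the other 16 lost the call.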
